A study of Mus musculus with 2 samples.

Results

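The membrane transporters that carry glucose, inositol and amino acids were followed through the cells of the mouse endometrium on day 3 of pregnancy. The members were all genes of the solute carrier families Slc1a, Slc2a, Slc5a, Slc6a, Slc7a and Slc38a, chosen by symbol alone. They made up 77 of the 19070 genes measured: 7 Slc1a, 11 Slc2a, 13 Slc5a, 20 Slc6a, 15 Slc7a and 11 Slc38a genes. The symbol rule also took in Slc7a6os, which is named for lying opposite Slc7a6 and is not itself a transporter. The study compared 1 library of Erbb3 f/f control females with 1 library of Erbb3 d/d females, whose Erbb3 deletion is stromal according to the labels. Erbb3 is a receptor of the ErbB family, and the study's title concerns the shaping of uterine glands. The driver of the deletion, the age of the females and the number of mice behind each library were not given in the sources used here. RNA was read in fixed cells by pairs of gene-specific probes (10x Genomics Chromium Flex), and each value is a count of unique molecular identifiers (UMIs).

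These families differ in what they carry and in what drives the movement. Most Slc2a proteins let glucose and related sugars or inositol move down a gradient, most Slc5a and Slc38a proteins use the sodium gradient, Slc1a proteins move glutamate or neutral amino acids, Slc6a proteins move amino acids, amines, taurine or creatine with sodium and chloride, and many Slc7a proteins exchange amino acids and need a partner subunit of the Slc3a family. In the uterus such transporters set the glucose and amino acids that reach the lumen, and progesterone and estrogen are known to change several of them in the epithelium before implantation.

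After filtering, 5503 f/f and 1830 d/d cells were used, with 5517795 and 1712695 UMIs and medians of 809 and 764.5 UMIs per cell. The cells were assigned to types by marker genes ("gated"), which gave 2009 and 758 epithelial cells and 1600 and 383 stromal cells (f/f and d/d). Among epithelial cells, 1346 and 336 were luminal-gated, that is, of the lining of the uterine cavity. Glandular-gated cells numbered 94 and 8, and 569 and 414 epithelial cells could not be divided. Of the markers, 8 of 9 glandular and 7 of 7 luminal ones were higher in their own f/f gate when it was made without them. Prss28 had no UMI in either. Of the 8, Prss29 had 1, Wfdc3 4, Spink1 5 and Foxa2 9 UMIs in the glandular gate. The highest counts there were of Dab1 (45), Gulo (40) and Syn2 (36), which were known from earlier results of these data. Without those, 11 f/f cells were glandular-gated. Epithelial markers reached 11.9 to 30.0% of their epithelial level in f/f stromal-gated cells and 15.0 to 42.9% in d/d ones, and stromal markers reached 4.92 to 16.8% of their stromal level in epithelial-gated cells. A member at such a share in the other compartment cannot be told apart from RNA carried between cells. Erbb3 itself had 78.3 CPM (UMIs scaled to a common total for each gate) in f/f and 43.6 CPM in d/d epithelial-gated cells, and 18 and 2 UMIs in stromal-gated cells, where its level was too low to check the deletion. No whole barcode was shared by the libraries, and the first 16 bases were shared by 158.

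Each genotype rests on 1 library, so variation between animals could not be measured, no test was run, and no difference below is shown to belong to the genotype. The 95% intervals, in parentheses, are exact and cover counting error only. A ratio was read where both groups together held at least 50 UMIs, and a log2 ratio of 1 in size (2-fold) is called past the fold. Probe pairs differ between genes, so levels are compared for a gene across cells and not between genes. In these pooled counts, fewer cells expressing a gene and less RNA per cell cannot be told apart.

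Of the 77 members, 26 had at least 100 UMIs over both libraries, 13 had 20 to 99, 32 had 1 to 19 and 6 had none. The 6 at 0 were Slc7a13, Slc7a10, Slc2a7, Slc5a2, Slc6a16 and Slc6a18, of which several are known from kidney or intestine. The map of the 26 across gates shows 4 members highest in f/f luminal-gated cells, 5 in glandular-gated and 6 in stromal-gated cells of that library, and 4 highest in d/d groups.

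**Figure D1:**
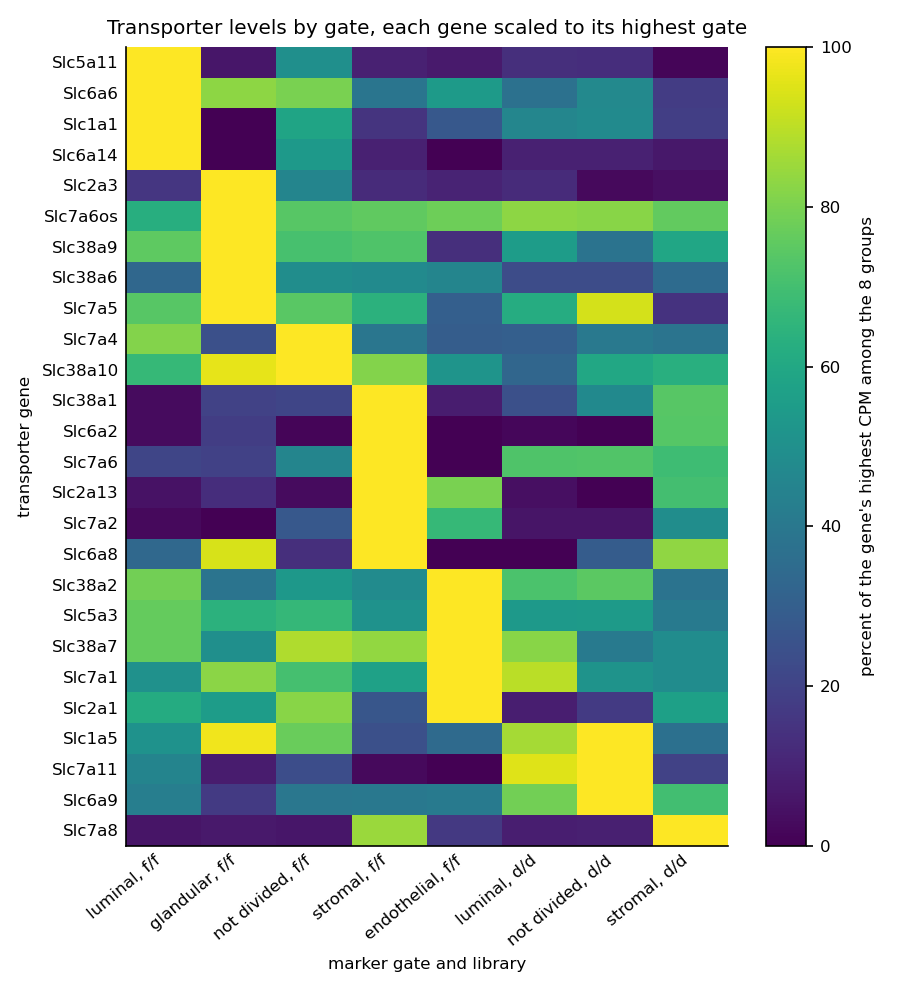
Levels of the 26 members with at least 100 UMIs (rows) in 8 groups of at least 94 cells (columns, f/f or d/d library). Colour is the gene's CPM as a percent of its highest CPM among the 8 groups. Slc5a11, Slc6a6, Slc1a1 and Slc6a14 peak in f/f luminal-gated cells, Slc2a3 in f/f glandular-gated cells, and Slc38a1, Slc6a2 and Slc2a13 in f/f stromal-gated cells. Groups with few UMIs, such as f/f endothelial-gated cells, can peak by chance of counting.

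Luminal-gated and glandular-gated cells of the f/f library differed in several transporters. Glandular-gated cells held the glucose transporter Slc2a3 at 6.36 times the luminal level, and luminal-gated cells held the inositol transporter Slc5a11, the glutamate transporter Slc1a1, the broad amino acid transporter Slc6a14 and the cystine exchanger Slc7a11 at levels that were low or at 0 in glandular-gated cells. Of 15 members with enough UMIs, 6 were past the fold toward luminal and 2 toward glandular cells. Over all 6876 genes read the same way, 14.7% were past the fold toward luminal and 6.82% toward glandular cells. The median log2 ratio was 0.27 for the members and 0.06 for all genes.

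Slc2a3 encodes a high-affinity facilitative glucose transporter. In the f/f library it had 298 CPM (271 to 327) in luminal-gated, 866 CPM (787 to 950) in undivided and 1899 CPM (1649 to 2176) in glandular-gated cells. The luminal over glandular log2 ratio was -2.67 (-2.91 to -2.43), and the 3 groups did not overlap in their counting intervals. Its 207 glandular UMIs lay in 63 of 94 cells, with at most 23 in 1 cell.

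Slc2a3 also followed the number of glandular marker UMIs in a cell. F/f epithelial-gated cells with 0 glandular marker UMIs had 337 CPM of Slc2a3, those with 1 had 784 CPM, those with 2 had 1122 CPM and those with 3 or more had 1731 CPM. Slc1a5, which exchanges glutamine and other neutral amino acids, ran the same way, with 366, 442, 515 and 687 CPM. Its level in the luminal-gated cells was 343 CPM against 660 CPM in glandular-gated cells, a log2 ratio of -0.95 (-1.30 to -0.57) that stayed within the fold. Slc5a11 ran the other way, at 433, 332, 143 and 60.9 CPM. Cells with 3 or more glandular marker UMIs were deeper (median 1134.5 UMIs) than those with none (880), and CPM is relative to that depth.

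**Figure D2:**
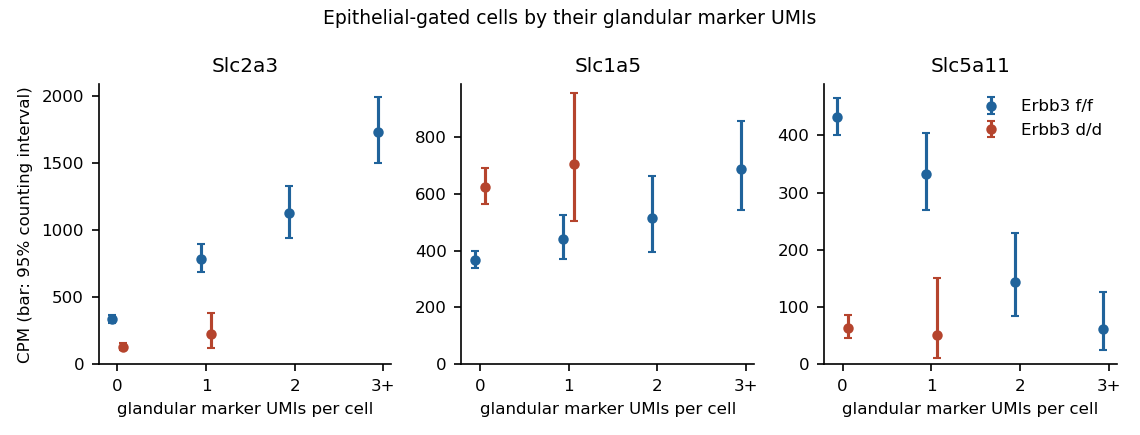
Level of Slc2a3, Slc1a5 and Slc5a11 in CPM (vertical axes, from 0) in epithelial-gated cells with 0, 1, 2 or at least 3 glandular marker UMIs (horizontal axes), with 95% counting intervals. The f/f points of Slc2a3 run from 337 to 1731 CPM and those of Slc5a11 from 433 to 60.9 CPM. D/d points are drawn for 0 and 1 UMIs, since 9 and 7 d/d cells held more.

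Among the other members lower in luminal cells, Slc38a6, a less studied relative of the sodium-coupled neutral amino acid carriers, had 49.0 CPM in luminal-gated and 147 CPM in glandular-gated cells. Its log2 ratio was -1.58 (-2.38 to -0.70), on 16 glandular UMIs. Slc7a6os was at -0.68, Slc38a10 at -0.52 and the lysosomal arginine sensor Slc38a9 at -0.41, all within the fold.

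Slc5a11 encodes a sodium-coupled transporter of myo-inositol. It had 460.5 CPM (427 to 496) in f/f luminal-gated cells and 27.5 CPM (5.67 to 80.4) in glandular-gated cells, where it had 3 UMIs. The log2 ratio was 4.06 (2.51 to 6.35). Slc1a1, a carrier of glutamate, aspartate and cysteine, had 243 luminal UMIs (161 CPM) and no glandular UMI. Set against the limit of 3 counts that a 0 allows in the whole gate, it was at least 5.84-fold higher in luminal-gated cells. Slc6a14, which takes up neutral and cationic amino acids, had 185 luminal UMIs (122 CPM) and none in glandular-gated cells, at least 4.45-fold higher by the same limit. Both calls were lost where Syn2 alone marked glandular cells, with log2 ratios of 0.70 (-0.08 to 1.59) for Slc1a1 and 0.78 (-0.14 to 1.86) for Slc6a14. In the glandular gate the 2 members at 0 and Slc5a11 thus had at most 3 UMIs each. The 0 of Slc6a14 holds for that gate only. F/f epithelial-gated cells with 0, 1, 2 and 3 or more glandular marker UMIs had 111, 85.6, 84.4 and 52.2 CPM of it. The last value (19.2 to 114) rests on 6 UMIs, all outside the glandular gate, and its interval overlapped that of cells with 0. Slc1a1 had 151, 127, 75.9 and 17.4 CPM in the same cells, the last on 2 UMIs.

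Slc7a11, the exchanger that imports cystine for glutathione, had 84 luminal UMIs and 1 glandular UMI (log2 ratio 2.60, 0.08 to 7.92). With gates that needed at least 3 marker UMIs its ratio was 0.12. Slc7a4, a relative of the cationic amino acid carriers with no settled substrate, had 139 and 3 UMIs (1.74, 0.16 to 4.04). Its ratio was -0.27 where Syn2 alone marked glandular cells. Slc38a2, a sodium-coupled carrier of neutral amino acids known to respond to amino acid supply, had 262 and 128 CPM (1.03, 0.27 to 1.91). Its ratio was past the fold under 4 of 15 other settings and lay between 0.43 and 1.03 over them. The taurine transporter Slc6a6 (0.27), the osmotically regulated inositol carrier Slc5a3 and the lysosomal glutamine carrier Slc38a7 (0.62) were within the fold.

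**Figure D3:**
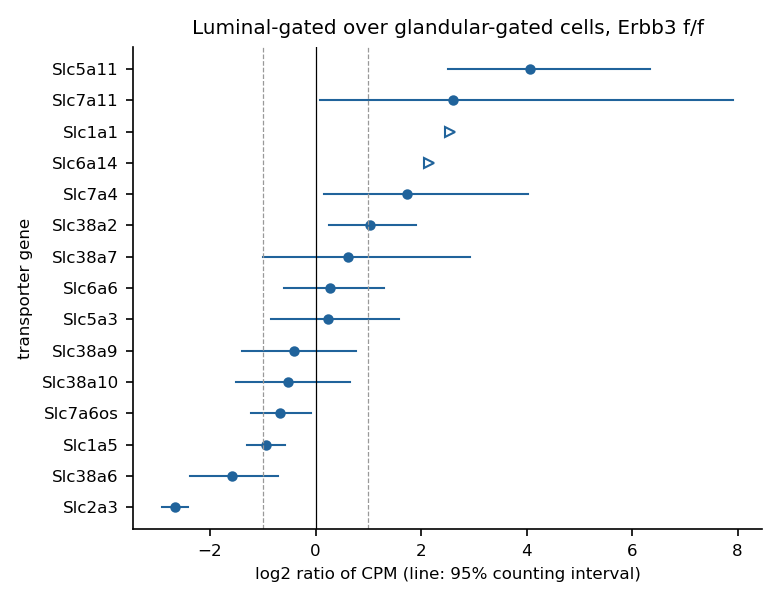
Log2 ratio of CPM in luminal-gated over glandular-gated cells of the f/f library (horizontal axis) for the 15 members with at least 50 UMIs over both gates. Dots carry 95% counting intervals, open triangles are lower bounds for members with no glandular UMI, and dashed lines mark 2-fold. Slc2a3 and Slc38a6 lie left of the fold, and Slc5a11 lies farthest right at 4.06.

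Summed by family, Slc2a had 1935 CPM in glandular-gated and 348 CPM in luminal-gated cells, most of it Slc2a3. Slc5a had 110 and 590 CPM. The Slc7a and Slc38a sums had overlapping intervals (413 and 390 CPM, and 495 and 478 CPM).

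The d/d library held 8 glandular-gated cells with 8943 UMIs, in which 3 counts are 335 CPM. Of 4 members with enough UMIs there, 1 (Slc38a2, on 1 glandular UMI) was past the fold toward luminal cells and 0 toward glandular cells, beside 12.6% and 10.2% of all genes, whose median was -0.20. Among the listed genes Gclc, Birc5, Rrm2 and Top2a were past the fold toward luminal cells, each on 1 or 2 glandular UMIs. Slc2a3 had 2 glandular UMIs, and the contrast could not be read in that library.

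The promoters of a few of these genes are shown. They were picked from the members past the fold toward luminal cells in f/f that also differed between the libraries. Slc7a4 and Slc1a1 were among those members too and are not printed. RefSeq (GRCm38.p6) holds promoters of 57 of the 77 members, and the 250 bases before the start are printed 5′ to 3′ on the gene's strand for the cystine exchanger, which was higher in d/d, and for a pair of transporters that were lower there. Capitals mark the core of the amino acid response element (TGATGCAA, or TTGCATCA on the other strand), bound by ATF4 when amino acids are short.
Slc7a11, chr3:50443614-50443863, minus strand: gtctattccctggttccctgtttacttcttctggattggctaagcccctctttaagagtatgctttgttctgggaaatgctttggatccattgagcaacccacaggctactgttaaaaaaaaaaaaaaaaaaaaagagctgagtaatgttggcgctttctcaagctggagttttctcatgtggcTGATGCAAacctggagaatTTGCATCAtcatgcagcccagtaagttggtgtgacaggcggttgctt
Slc5a11, chr7:123214616-123214865, plus strand: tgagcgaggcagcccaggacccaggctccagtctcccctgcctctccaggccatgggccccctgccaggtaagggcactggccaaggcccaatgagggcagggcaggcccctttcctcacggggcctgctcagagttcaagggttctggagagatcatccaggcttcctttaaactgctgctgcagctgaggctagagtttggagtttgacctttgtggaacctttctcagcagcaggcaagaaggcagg
Slc6a14, chrX:21714650-21714899, plus strand: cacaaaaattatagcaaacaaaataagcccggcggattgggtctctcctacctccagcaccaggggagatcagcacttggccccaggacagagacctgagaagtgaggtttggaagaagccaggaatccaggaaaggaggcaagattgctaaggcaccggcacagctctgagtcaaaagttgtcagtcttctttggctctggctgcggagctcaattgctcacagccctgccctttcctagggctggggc
Slc7a11 held 2 matches, which face each other and begin 66 and 47 bases before the start. Of 32851 promoter windows of this length, 260 (0.791%) held a match on either strand. So did 2 of the 57 members, Slc7a11 and the cationic and neutral exchanger Slc7a7. Members were counted per gene, by a match in any of their windows, and the shares over all are per window. The progesterone receptor's core hexamer (TGTTCT, or AGAACA on the other strand) was in 16.1% of all windows and in 10 of the 57 members. It had 1 match in Slc7a11 and none in Slc5a11, Slc6a14 or Slc1a1. A match describes these letters and does not show a bound site.

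In epithelial-gated cells, the d/d library had much less of the luminal inositol and amino acid transporters Slc5a11 and Slc6a14 and of the glucose transporters Slc2a3 and Slc2a1 than the f/f library, and more of Slc38a1, Slc7a6, Slc7a11 and Slc6a9. Of 21 members with enough UMIs, 4 were past the fold toward d/d and 6 toward f/f. The background over 8504 genes was 5.86% toward d/d and 5.17% toward f/f. The members' median log2 ratio (d/d over f/f) was -0.45, and that of all genes was -0.02.

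Slc6a14 had 103 CPM (89.5 to 117) in f/f and 11.3 CPM (4.86 to 22.2) in d/d epithelial-gated cells, a log2 ratio of -3.19 (-4.42 to -2.18). Slc5a11 had 383 CPM (357 to 410) in f/f and 60.5 CPM (43.8 to 81.5) in d/d, a ratio of -2.66 (-3.14 to -2.22). In luminal-gated cells alone the ratios were -3.43 for Slc6a14 and -2.88 for Slc5a11. Both were far lower in d/d in either gate, and their intervals did not overlap between the libraries.

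The d/d luminal-gated cells also differed in their markers. Lrp2, an endocytic receptor of the lining cells, had 1683 CPM in f/f and 259 CPM in d/d luminal-gated cells. Among f/f luminal-gated cells, Slc5a11 had 479 CPM in the 1036 with a UMI of Lrp2 and 387 CPM in the 310 without. Among d/d cells it had 207 CPM (99.3 to 381) in the 49 with Lrp2 and 39.6 CPM (20.4 to 69.1) in the 287 without. Slc5a11 was thus lower in d/d both with and without Lrp2 UMIs.

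Of the other amino acid carriers lower in d/d, Slc6a6 (taurine) had 115 CPM in f/f and 50.7 CPM in d/d epithelial-gated cells (-1.18, -1.73 to -0.67). Slc7a4 had 93.7 and 42.2 CPM (-1.15, -1.76 to -0.59). Slc1a1 had 136 and 74.6 CPM, at -0.87 (-1.32 to -0.44) in all epithelial-gated and -1.12 in luminal-gated cells. In luminal-gated cells 6 of 16 members were past the fold toward f/f and 1 toward d/d, beside 6.12% and 5.03% of all genes. The 6 were Slc6a14, Slc5a11, Slc7a4 (-1.43), Slc6a6 (-1.42), Slc1a1 and Slc38a10 (-1.02), and the 1 was Slc7a11 (1.07). The members' median there was -0.47 and that of all genes -0.01.

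Slc2a3 had 517 CPM (487 to 548) in f/f and 142 CPM (116 to 173) in d/d epithelial-gated cells, a log2 ratio of -1.86 (-2.17 to -1.57). The difference was smaller in luminal-gated cells (298 and 233 CPM, -0.36) and larger in undivided cells (866 and 48.6 CPM). Over all cells used it had 476.5 and 100.4 CPM. Glandular markers were lower in d/d epithelial-gated cells too: the 9 together had 364 and 138 CPM, with 1 at 0 in both libraries, and Gulo had 148 and 50.7 CPM, Syn2 66.6 and 23.9, and Dab1 90.0 and 39.4. In cells with no glandular marker UMI Slc2a3 had 337 CPM in f/f and 129 CPM in d/d. Without cells holding a UMI of Lrp2 the ratio was -3.22, from 728 CPM in 817 f/f and 78.3 CPM in 697 d/d epithelial-gated cells. The cells with such a UMI ran the other way, with 400.2 CPM (367 to 435) in 1192 f/f and 844 CPM (627 to 1113) in 61 d/d cells. The part of the glandular share in the difference was not tested beyond these values.

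Slc2a1, another facilitative glucose transporter, had 47 UMIs (22.0 CPM) in f/f and 3 UMIs (4.22 CPM) in d/d epithelial-gated cells, a ratio of -2.38 (-4.71 to -0.75). In stromal-gated cells it had 14 and 7 UMIs, 8.91 and 18.9 CPM, too few to read.

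**Figure D4:**
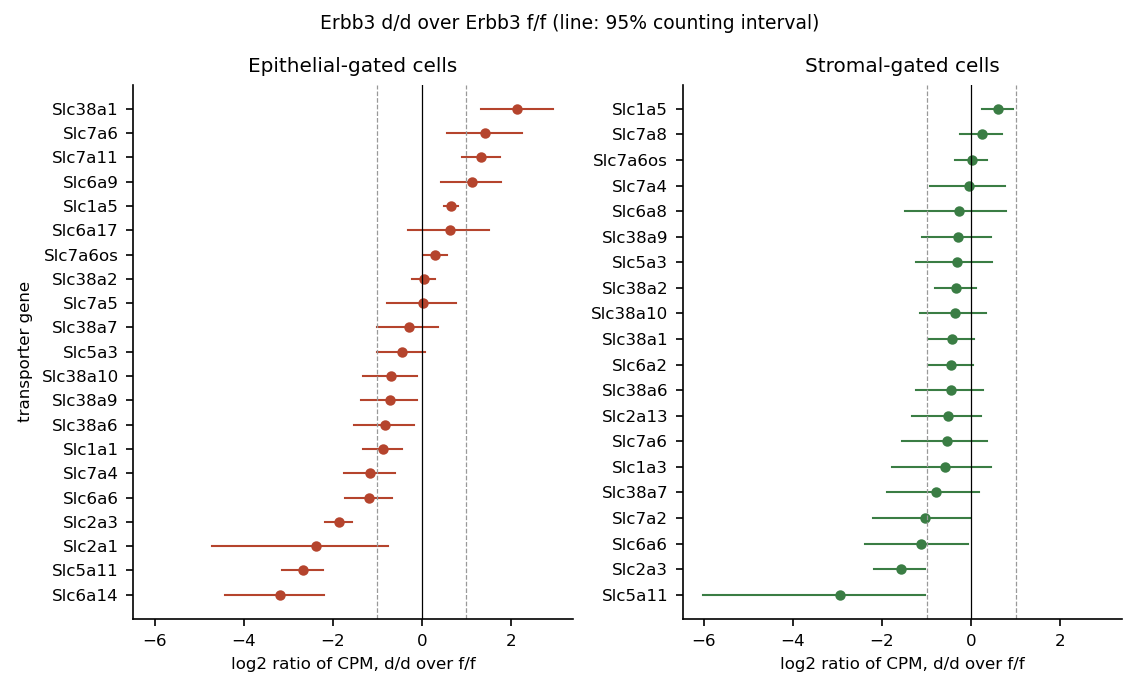
Log2 ratio of CPM, d/d over f/f (horizontal axes), in epithelial-gated cells for 21 members and in stromal-gated cells for 20 members with at least 50 UMIs. Lines are 95% counting intervals and dashed lines mark 2-fold. Slc6a14 and Slc5a11 lie lowest in epithelial-gated cells, and Slc5a11 and Slc2a3 in stromal-gated cells. Slc1a5 lies above 0 in both.

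Among the members higher in d/d, Slc38a1, a sodium-coupled glutamine carrier, had 11.2 CPM (7.21 to 16.7) in f/f and 49.3 CPM (34.3 to 68.5) in d/d epithelial-gated cells, at 2.13 (1.34 to 2.94). Its main site was the stroma (139 CPM in f/f), so the f/f epithelial level was 8.11% of the stromal one, within the range of carried stromal markers, and the d/d level was above that range at 47.9%. Slc7a11 had 46.9 CPM (38.1 to 57.0) and 118 CPM (94.3 to 146), at 1.33 (0.90 to 1.77). Slc7a6, an exchanger of cationic and neutral amino acids, had 27 and 24 UMIs (12.7 and 33.8 CPM, 1.42), and the glycine transporter Slc6a9 had 47 and 34 UMIs (22.0 and 47.8 CPM, 1.12). Slc1a5 had 402 CPM (375 to 430) and 635 CPM (577 to 696), at 0.66 (0.49 to 0.83), within the fold but with intervals apart. It was also higher in d/d among luminal-gated (0.77) and stromal-gated cells (0.60). The d/d stromal level of Slc1a5 was 39.2% of the epithelial one, within the d/d range of carried epithelial markers (15.0 to 42.9%). The f/f one was 41.0%, above the f/f range (11.9 to 30.0%). The stromal difference cannot be told apart from carried RNA.

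The remaining members were within the fold in epithelial-gated cells. Slc38a6 (-0.82), Slc38a9 (-0.71) and Slc38a10 (-0.69) were below 0 with intervals that did not reach it. Slc5a3 (-0.45) and Slc38a7 (-0.29) had intervals that included 0. So did Slc38a2 (0.04), the large neutral amino acid carrier Slc7a5 (0.03) and Slc6a17 (0.63), a vesicular carrier of neutral amino acids. Slc7a6os was at 0.30. Slc7a1, a carrier of arginine and lysine with 111 UMIs over both libraries, was too sparse for a ratio, with 27 and 11 UMIs (12.7 and 15.5 CPM).

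Cell division genes also differed between the libraries. The 19 proliferation genes summed to 1647 CPM in f/f and 3762 CPM in d/d epithelial-gated cells. Of 18 with enough UMIs, 11 were past the fold toward d/d, beside 5.86% of all genes, led by Mcm5 (2.26), Kif11 (1.80) and Rrm2 (1.73). The others were Tpx2, Ccna2, Bub1, Pcna, Top2a, Mcm4, Mcm3 and Mcm2, between 1.06 and 1.55. Cells with a UMI of any of them were 911 of 2009 in f/f and 578 of 758 in d/d. In cells without one, Slc2a3 had 599 CPM in f/f and 437 CPM in d/d, a ratio of -0.45 and so within the fold. In cells with one it had 444 and 71.5 CPM. Slc5a11 stayed past the fold without such cells (481 and 146 CPM, -1.72), as did Slc6a14 (-2.30) and Slc7a11 (1.05). Slc38a1 was at 0.86, Slc7a4 at -0.39 and Slc6a6 at -0.84 without such cells. Slc1a5 was higher in d/d in cells without (427 and 568 CPM) and with a proliferation UMI (380 and 651 CPM). A cell with no such UMI can still be dividing at these depths (medians of 817 and 683.5 UMIs), so this is a division by counts and not by cell state.

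**Figure D5:**
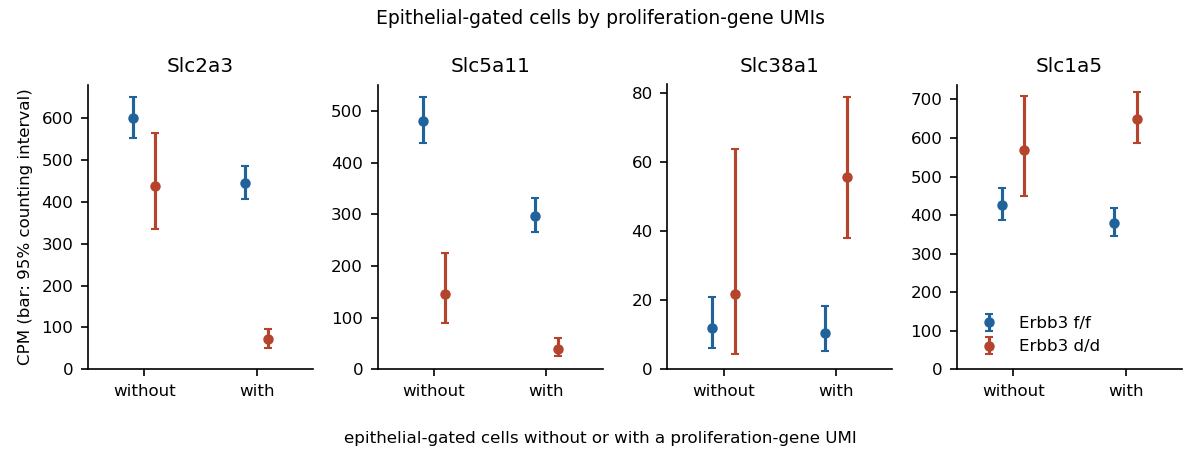
Level of 4 members in CPM (vertical axes, from 0) in epithelial-gated cells without or with a UMI of a proliferation gene, in the f/f and d/d libraries, with 95% counting intervals. Slc2a3 differs most between the libraries in cells with such a UMI (444 and 71.5 CPM). Slc5a11 is lower and Slc1a5 higher in d/d in both kinds of cell.

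The stroma carried its own set. In f/f, 26 members had enough UMIs over stromal-gated and epithelial-gated cells, and 8 were past the fold toward the stroma and 9 toward the epithelium, beside 16.1% and 14.6% of all genes. The 8 were Slc1a3, a glutamate carrier (36.3 CPM in stroma, log2 ratio 5.27), Slc6a2, the noradrenaline transporter (151 CPM, 4.87), Slc2a13, a proton-coupled inositol carrier (69.4 CPM, 4.40), and the neutral amino acid carrier Slc7a8 (113 CPM, 3.91). The others were Slc38a1 (3.62), the arginine carrier Slc7a2 (49.6 CPM, 3.56), Slc7a6 (47.1 CPM, 1.90) and the creatine transporter Slc6a8 (29.3 CPM, 1.64). Of the inositol carriers, Slc2a13 lay toward the stroma and Slc5a11 toward the epithelium, while Slc5a3 was within the fold (50.9 CPM in stromal-gated and 73.1 CPM in epithelial-gated cells, -0.52). Of the glutamate carriers, Slc1a3 lay toward the stroma and Slc1a1 toward the epithelium.

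Toward the epithelium lay Slc7a11 (-3.88), Slc5a11 (-3.19), Slc6a14 (-3.16), Slc1a1 (-2.50), Slc2a1 (-1.31), Slc6a6 (-1.29), Slc1a5 (-1.29), Slc2a3 (-1.15) and Slc7a4 (-1.07). In stromal-gated cells Slc5a11 stood at 11.0%, Slc6a14 at 11.2% and Slc1a1 at 17.7% of the epithelial level, at or near the range of carried epithelial markers. Slc2a3 stood at 45.2%, above the f/f range of carried epithelial markers (11.9 to 30.0%). The glandular markers with at least 100 UMIs in f/f epithelial-gated cells were above it too (Gulo 34.9%, Syn2 61.2%, Dab1 76.4%). Whether the stromal UMIs of Slc2a3 or of these markers were carried was not tested. In d/d, 9 members had enough UMIs, with 2 (Slc7a8 and Slc38a1) past the fold toward the stroma and 3 (Slc7a11, Slc1a5 and Slc1a1) toward the epithelium, beside 7.95% and 15% of all genes.

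Between the libraries, stromal-gated cells had fewer UMIs of Slc2a3, Slc6a6 and Slc7a2 per total in d/d. Of the 8 members that lay toward the stroma in f/f, Slc7a2 was past the fold and the other 7 were within it. Of 20 members with enough UMIs, 0 were past the fold toward d/d and 4 toward f/f, beside 2.45% and 4.25% of all genes, and the medians were -0.44 for members and -0.08 for all genes. Of the 4, Slc5a11 had 66 and 2 UMIs (-2.96), at a level near that of carried epithelial RNA. Slc2a3 had 234 CPM (210 to 259) in f/f and 78.5 CPM (52.6 to 113) in d/d, at -1.57 (-2.17 to -1.03). Of the glandular markers in the same cells, Gulo (-1.44) and Syn2 (-1.59) were past the fold toward f/f. Dab1, with the most UMIs of them there, was at -0.14 (68.7 and 62.2 CPM), and Spink1 had 10 and 4 UMIs (6.36 and 10.8 CPM). Slc6a6 had 74 and 8 UMIs (47.1 and 21.6 CPM, -1.12), and Slc7a2 had 78 and 9 UMIs (-1.03). In epithelial-gated cells Slc6a6 had 115 and 50.7 CPM (-1.18), and the part of carried epithelial RNA in its stromal difference was not tested. The median share of mitochondrial UMIs was 1.28% in f/f and 3.10% in d/d stromal-gated cells, and its part in these values was not tested.

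Slc6a2 had 151 CPM (132 to 171) in f/f and 111 CPM (79.6 to 151) in d/d (-0.44, -0.96 to 0.04). Slc38a1 was at -0.43, Slc2a13 at -0.51, Slc1a3 at -0.57 and Slc7a6 at -0.54, each with an interval that included 0. Slc7a8 was at 0.24 (113 and 133 CPM), Slc6a8 at -0.27 and Slc7a4 at -0.04. Slc1a5, at 0.60 (0.24 to 0.94), had an interval above 0. Its d/d stromal level was 39.2% of the epithelial one, within the range of carried epithelial markers.

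Genes that work with these transporters were read from lists chosen by function. Between f/f luminal and glandular cells, 14.7% of all genes were past the fold toward luminal and 6.82% toward glandular cells. The shares of all genes given above for the other comparisons likewise stand beside the counts below. Of the 4 partner subunits, Slc3a2, the partner of Slc7a5, Slc7a8 and Slc7a11, alone had enough UMIs, and it was within the fold between libraries in all 3 gates. Of 19 glycolysis and lactate genes, 10 could be read between luminal and glandular cells and 3 were past the fold, all higher in glandular-gated cells as Slc2a3 was: Hk2, which traps glucose in the cell (-1.40, -1.78 to -1.01), Pgam1 (-1.18) and Gpi1 (-1.02, on 7 glandular UMIs). The sodium pump subunits Atp1b1 (1.06) and Atp1b3 (1.85, on 2 glandular UMIs) were past the fold toward luminal cells. Among genes of glutathione and taurine handling, Gclc, which catalyses the first step of glutathione synthesis (1.64), and Cdo1 and Csad of taurine synthesis (2.14 and 1.43) were past the fold toward luminal cells. Gclm (-1.30) was past it toward glandular cells.

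Of the 13 amino acid response and synthesis genes, 6 could be read between luminal and glandular cells. Sesn2 (2.45), Psat1 (1.96, on 1 glandular UMI) and Ddit3 (1.06) were past the fold toward luminal cells, and Mthfd2 (-1.33) toward glandular cells. Of 8 osmolyte, inositol and polyol genes 4 could be read, and none was past the fold. Of 16 proliferation genes read, 4 were past the fold toward luminal cells (Rrm2, Tyms, Mcm6 and Birc5).

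Between libraries, epithelial-gated cells showed 3 of 9 amino acid response and synthesis genes past the fold toward d/d, beside 5.86% of all genes. The 3 were Trib3, an ATF4 target (2.29), Psat1 of serine synthesis (2.16) and Shmt2 of glycine synthesis (1.20). The rest were within the fold, and the list's median log2 ratio was 0.22. Slc7a11 was past the fold in the same cells, and a shared response was not tested. Of the list's promoter windows, those of Chac1 and Pycr1 held the amino acid response core printed above for Slc7a11, and those of Trib3, Psat1 and Shmt2 did not. Of 12 glycolysis and lactate genes, Ldhb (1.75) and Pfkp (1.19) were past the fold toward d/d, and none toward f/f. Cdo1 of taurine synthesis was lower in d/d (141 and 29.6 CPM, -2.26), as was Glul, glutamine synthetase (129 and 46.4 CPM, -1.47), and the taurine transporter Slc6a6 was lower in the same cells. No osmolyte gene was past the fold. In luminal-gated cells Psat1 (2.02), Ldhb (1.86) and Cdo1 (-2.03) were past the fold in the same directions, as were 9 of 16 proliferation genes (Kif11, Rrm2, Tpx2, Ccna2, Bub1, Mcm2, Top2a, Mcm3 and Cenpf).

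In stromal-gated cells, 2 of 7 genes of glutamate, glutathione, creatine and taurine handling were past the fold toward f/f, beside 4.25% of all genes. Both are enzymes of creatine synthesis: Gamt (109 and 43.3 CPM, -1.34) and Gatm (142 and 64.9 CPM, -1.13). The creatine transporter Slc6a8 was at -0.27 there. Gpi1 (-2.77, on 2 d/d UMIs), Impa2 of inositol synthesis (-1.74, on 5), Mthfd2 (-1.35) and Atp1b3 (-1.39) were lower in d/d, and Pycr1 of proline synthesis (1.41) was higher, as were the proliferation genes Top2a, Rrm2 and Cdk1.

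The same lists divided the stroma from the epithelium. In f/f, the creatine synthesis enzymes Gatm (4.78) and Gamt (3.62) were past the fold toward stromal-gated cells, where the creatine transporter Slc6a8 also lay. So were Isyna1 (1.34) and Impa2 (1.68) of inositol synthesis, Akr1b3 of the polyol pathway (1.37), Pycr1 (1.70), Shmt2 (1.42) and the phosphofructokinases Pfkm (1.62) and Pfkp (1.37). Toward the epithelium lay Cdo1 (-2.54), Gclc (262 stromal and 1426 epithelial UMIs), the creatine kinase Ckmt1 (-1.63), Glul (-1.51), Sesn2 (-1.83), Psat1 (-1.37), Hk2 (-1.09) and the sodium pump subunit Atp1b1 (-2.58). Of 18 proliferation genes read, 11 lay toward the epithelium (Kif11, Birc5, Cenpf, Cdk1, Tpx2, Top2a, Bub1, Mki67, Ccna2, Tyms and Rrm2) and 2 toward the stroma (Mcm4 and Mcm5). In d/d, none of the listed genes reported here was past the fold toward the stroma. Toward the epithelium there lay Psat1 (-2.59), Mthfd2 (-1.86), Ldhb (-1.85), Sesn2 (-1.80), Gclc (-1.63), Atp1b1 (-1.58), Hk2 (-1.34), Slc3a2 (-1.08) and Hk1 (-1.02), with 12 of 15 proliferation genes (Bub1, Kif11, Tpx2, Cdk1, Birc5, Ccna2, Top2a, Cenpf, Mki67, Rrm2, Mcm6 and Mcm2).

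Of the 13 members with 20 to 99 UMIs, Slc6a15, a carrier of branched-chain amino acids and proline, had 26 UMIs in f/f epithelial-gated cells and none in d/d, where 3 counts are 4.22 CPM. The f/f level was 12.2 CPM. The iodide carrier Slc5a5 had 38 and 3 UMIs there, and the sodium-coupled glucose transporter Slc5a1 had 28 and 6. The neutral amino acid carrier Slc1a4 had 20 and 18 UMIs, or 9.37 and 25.3 CPM, higher in d/d in the same direction as its relative Slc1a5. These 4 did not reach the 50 UMIs needed for a ratio in any comparison and were chosen after their values were seen. Of the 13, Slc6a17 and Slc1a3 alone reached it, with the ratios given above. The 32 members with 1 to 19 UMIs gave no reading by cell type at this depth.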

How the data were processed

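Per the file headers, the deposited values are raw UMI counts made with Cell Ranger 9.0.0, for each gene in each barcode of the filtered matrix. The submitters' processing notes name mm10 and GRCm39 without their roles, so no gene coordinates are given apart from RefSeq promoter windows. Tissue was fixed before dissociation, per the labels' protocols, which name differing kits. The libraries held 5783 (f/f) and 2125 (d/d) barcodes with 6819591 and 2866862 UMIs. Barcodes with at least 200 genes and at most 10% mitochondrial UMIs were used, which left out 280 and 295.

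A cell took the type with the most marker UMIs among 7 types, with at least 2 UMIs and more than 2 times the next type. Epithelial-gated cells were divided into luminal and glandular by the same rule, on 7 and 9 markers, and cells that met no rule stayed undivided or ungated (1701 f/f and 625 d/d). No doublet caller was run. Cells whose top type was not more than 2 times the next stayed ungated, and gated cells could still hold some markers of another type. UMIs were summed by library and gate and scaled to CPM of the gate's total. Sums have exact Poisson and ratios exact conditional binomial intervals (95%). A count of 0 was set to a limit of 3 counts, and cells are not replicates. No test was possible with 1 library per genotype.

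Named are members with at least 100 UMIs over both libraries, members and list genes past the fold, and members at 0. Some listed genes are not reported here. The members, markers and lists were chosen with earlier results of these data known. The comparison of stroma with epithelium was added after the values were seen. The scripts for ratios and intervals were tested on simulated data. Tools were Python 3.11.15, numpy 2.4.6, scipy 1.17.1, pandas 2.3.3 and matplotlib 3.10.9.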

Additional observations from a re-analysis of the deposited data

How the results depend on the processing

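Up to 15 other settings were tried per comparison: other limits on barcodes, gates, gene minimum and scaling, and leaving out cells with a UMI of Lrp2 or of a proliferation gene. Of 622 values of named members under them, 579 moved by less than their counting interval, 41 moved by more and 2 changed sign, both where Syn2 alone marked glandular cells (Slc7a4 in f/f to -0.27 and Slc38a2 in d/d to -0.22). A further 10 gave only a bound that left the direction open. Gene minimums of 20 and 100 UMIs kept the same cells, so values under them could not move, and they count among the 579. Where an interval was wide, a value could also move far and still count there. Slc7a11, luminal over glandular in f/f, went from 2.60 to 0.12 with gates of at least 3 UMIs. Counts of members past the fold are small, and those that moved by more than 1.5 times were these. Luminal over glandular in f/f, 6 higher and 2 lower, became 1 higher with the classical glandular markers alone, 2 higher and 1 lower with Syn2 alone, 2 higher without Lrp2-positive cells, and 1 lower at a minimum of 100 UMIs. In d/d, with 8 glandular cells, 1 higher and 0 lower became 2 and 1 with all barcodes, 0 higher under 9 settings and 1 lower under 5 others. D/d over f/f in epithelial-gated cells, 4 higher and 6 lower, became 2 higher with gates of at least 3 UMIs or without Lrp2-positive cells, 1 higher at a minimum of 100 UMIs, and 1 higher and 2 lower without proliferation-positive cells. In luminal-gated cells, 1 higher and 6 lower became 0 higher without the deepest 5% of barcodes, with the class of most marker UMIs or without Lrp2-positive cells, 2 higher with all barcodes, Syn2 alone or gates of 1 UMI, 3 higher at a minimum of 20 UMIs, and 3 lower without proliferation-positive cells. In stromal-gated cells, 0 higher and 4 lower became 1 higher at a minimum of 20 UMIs, 1 lower at 100, and 2 lower with at least 500 genes, the class of most marker UMIs or without proliferation-positive cells. Stromal over epithelial in f/f, 8 higher and 9 lower, became 15 lower at a minimum of 20 UMIs, 5 higher at 100 and 4 higher without proliferation-positive cells. In d/d, 2 higher and 3 lower became 4 higher with all barcodes, 1 higher at 5% mitochondrial UMIs or without Lrp2-positive cells, 0 higher with at least 500 genes, at a minimum of 100 UMIs or without proliferation-positive cells, and 5, 7 and 1 lower with the class of most marker UMIs and at minimums of 20 and 100. Except where values are given, the cause was not tested. No paired analysis was possible because each genotype has 1 library. Depth limits glandular-gated cells most, where 3 counts are 27.5 CPM in f/f and 335 CPM in d/d.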

Other observations

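Cells that no marker gate took held a large share of some members. Slc2a3 had 1128 of its 2629 f/f UMIs in ungated cells, at 681 CPM, and 41 UMIs (70.7 CPM) in ungated d/d cells. Slc1a5 had 459 and 628 CPM there, Slc5a11 329 and 11 UMIs, Slc6a14 64.6 and 17.2 CPM, and Slc7a11 19.9 and 69.0 CPM. Each of these 5 differed between the libraries in the same direction as in epithelial-gated cells.

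The 280 f/f and 295 d/d barcodes left out for their mitochondrial share showed the same directions for these genes. Slc2a3 had 369 and 45.1 CPM, Slc1a5 246 and 315 CPM, Slc5a11 139 and 13.9 CPM, Slc6a14 95 and 9 UMIs, and Slc7a11 32.3 and 53.7 CPM.

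The 106 endothelial-gated cells of the f/f library held few UMIs. They had 30 UMIs of Slc38a2 (333 CPM), 21 of Slc1a5 (233 CPM), 9 of Slc5a3 (99.8 CPM) and 5 of Slc2a13 (55.4 CPM), and none of Slc6a14, Slc6a2 or Slc7a11.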
